A study of Sus scrofa with 6 samples.

Results

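Interferon-stimulated genes, the genes that cells switch on after an interferon binds its receptor, were followed through the ileum of piglets from birth to the third week of life. The members were a list of 41 gene symbols, of which 37 were found among the 20648 genes of the files and 4 (IFIT5, SAMD9, SP100 and RNF213) were not. The rule took the genes by name and used no measured value, but the list was chosen with earlier results of these data known. Cells of the ileal mucosa were measured with 10x Chromium 3' single-cell RNA-seq in 6 libraries, 1 each on days 0, 1, 3, 7, 14 and 21, from male Large White piglets. According to the methods of the study, 5 piglets were taken at each age and the scraped mucosa was taken apart with EDTA and TrypLE, so each library pools animals and no spread between piglets can be seen. The text that describes the whole series names the cecum, while the labels of the samples and the study name the ileum. With 1 library an age, no difference between ages was tested, and age cannot be told apart from the library.

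Interferons are secreted proteins that warn cells of infection. Type I interferons such as interferon beta bind the receptor IFNAR1 and IFNAR2 found on nearly all cells, type III interferons bind IFNLR1 and IL10RB mainly on epithelia, and type II interferon (IFNG) comes from T and NK cells and binds IFNGR1 and IFNGR2. JAK kinases at the receptor then activate transcription factors, STAT2 with IRF9 among them, that drive antiviral effectors, RNA sensors and the genes of the ISG15 system, in which the small ubiquitin-like protein ISG15 is joined to other proteins.

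Barcodes with at least 1000 UMIs (unique molecular identifiers, each a captured transcript) and 500 genes were taken as cells, which gave 76099 cells, 10836 to 15956 a library, with medians of 3693 to 4560 UMIs per cell. A cell was called B with at least 2 UMIs on MS4A1, PAX5 and POU2AF1, T with at least 2 on CD3E and CD3G, myeloid with at least 10 on LYZ, CST3 and AIF1, and epithelial with at least 5 on EPCAM, KRT8 and VIL1. The 1443 cells that met several gates were left out of the lineages, and 13264 cells met no gate. This left 51498 B cells, 4775 T cells, 1287 myeloid cells and 3832 epithelial cells. The last 2 became rare: 18 myeloid cells were found on day 7 and 5 on day 21, and 27 epithelial cells on day 14 and 1 on day 21. Sums of fewer than 20 cells are given as values only.

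Markers that the gates did not use were checked in each lineage. B markers (8 of 8 in the files) summed to 18.5 to 38 UMIs per 10000 in B cells and to 0.431 to 2.5 in T cells. T markers (5 of 6, ZAP70 absent) summed to 4.9 to 9.53 in T cells and to 0.401 to 0.635 in B cells. Epithelial markers (7 of 7) summed to 22.7 to 101 in the epithelial libraries with at least 20 cells. The epithelial cells of different ages were unlike: on day 14 KRT18 was at 0, while FABP2 and KRT20, genes of mature enterocytes, were at 38 and 22.2, against 0.0132 and 1.58 on day 3. Myeloid markers (11 of 11) reached 145 and 192 in myeloid cells on days 0 and 1 but 21.6 on day 3. The macrophage gene C1QA was at 59.5 on day 0 and 0.334 on day 3, so that the myeloid gate held unlike cells at these ages. On day 14 C1QA was at 2.73, while the monocyte genes S100A9 and FCN1 were at 20.7 and 13.1, against 0.197 and 0.993 on day 0 and 45.4 and 8.77 on day 1. The part of these differences in the myeloid member levels was not tested. NK markers (5 of 5) summed to 3.98 to 14 in T cells. Between 2 libraries, at most 0.508% of the cell barcodes of the smaller library were shared.

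The summed level of the 37 members differed most between lineages on day 14. In T cells, with the 6 ages taken in order, it was 18.89, 25.04, 17.56, 59.37, 137.1 and 41.46 UMIs per 10000. In B cells of the same libraries it was 10.7, 22.15, 12.47, 20.41, 13.84 and 9.247. T cells were thus above B cells at every age, by 1.13 times at the least (day 1) and 9.91 times at the most (day 14; 6.15 times with cells counted in each gate they meet). Myeloid cells of days 0, 1, 3 and 14 stood at 19.25, 54.39, 12.56 and 286.2, the last from 74 cells. Epithelial cells had 7.053, 18.28, 14.82, 34.99 and 208.3 from birth to day 14, the last from 27 cells. On day 14, T, myeloid and epithelial cells were each at their highest, while B cells were below their own values of days 1 and 7. The exact Poisson 95% interval of T cells on day 14 was 135.1 to 139.1, that of B cells 13.76 to 13.92. These intervals cover counting error only and hold no spread between animals. Whether lineages differ in how they change with age was not tested, since each age has 1 library.

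**Figure D1:**
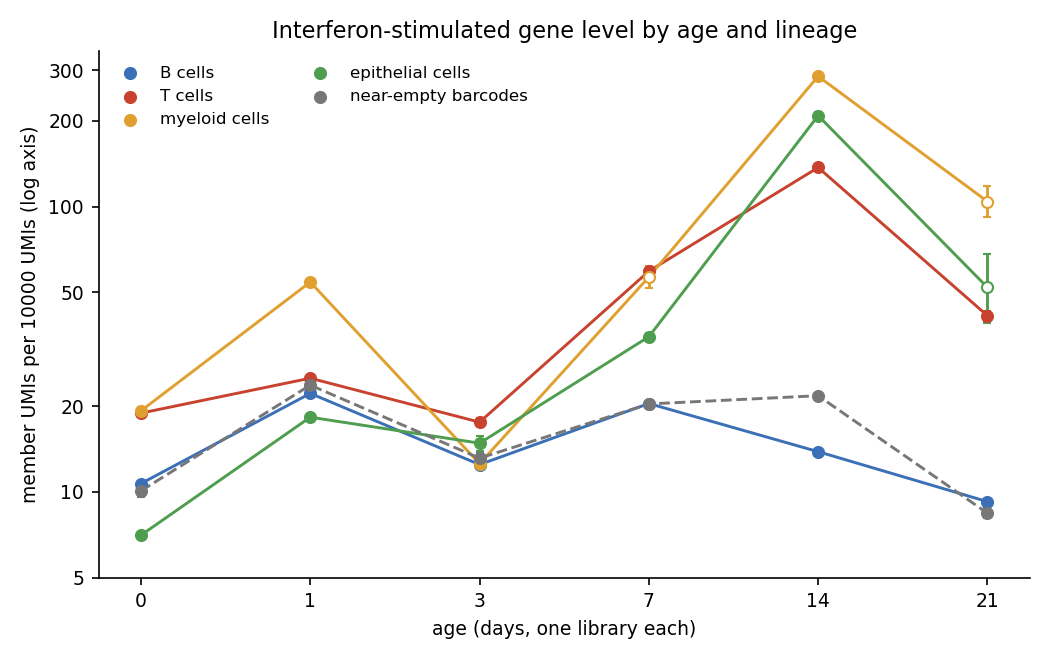
UMIs on the 37 members per 10000 UMIs (log axis) by age in days, for B, T, myeloid and epithelial cells (points joined by lines) and for barcodes with at most 100 UMIs (dashed). Bars are exact Poisson 95% intervals and open points rest on fewer than 20 cells. T cells reach 137.1 and myeloid cells 286.2 on day 14, where B cells are at 13.84.

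Over all cells of a library, the level was 10.56, 25.93, 14.75, 23.85, 20.23 and 9.99 at the 6 ages. Of the 15956 cells of the day 14 library, 14637 were B cells, which set most of this sum. Barcodes with 100 UMIs or fewer, which hold mainly RNA from outside cells, gave 10.09, 23.67, 13.13, 20.34, 21.74 and 8.428 at the 6 ages. On day 14 the B cells lay below this background and the T, myeloid and epithelial cells far above it, and on the other days it was 0.911 to 1.07 times the B cell level. Its part in the B cell values was not tested. Day 21 stood at 0.865 times day 0 in B cells and at 2.2 times in T cells, or 1.29 times in T cells with TMM scaling. In B cells this order rested on the members with the most UMIs, IFI6 and ISG15: without both it was 1.21.

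IFI6, a mitochondrial protein that blocks apoptosis, took 24.1% of all member UMIs, and ISG15 took 20.1%. By age the pair changed places: over all cells ISG15 was at 6.6 and 4.78 UMIs per 10000 on days 1 and 14 and IFI6 at 6.1 and 4.65, while IFI6 was the higher at the other ages. Next came MX1 with 6.32%, EIF2AK2 with 4.8%, STAT2 with 4.68%, EPSTI1 with 3.99%, TRIM25 with 3.15%, IRF7 with 3.14%, PARP14 with 2.84% and IFI44L with 2.82%. These shares compare captured 3' ends, of which a transcript gives 1 whatever its length. The order differed between lineages. STAT2 held 7.28% of the member UMIs in B cells and 1.12% in T cells, PLSCR1 5.61% in epithelial cells and 0.606% in T cells, and ISG15 34.8% in myeloid cells. Without IFI6 and ISG15, T cells on day 14 were still at 56.4 and B cells at 8.38 UMIs per 10000. The least abundant members were ZBP1, a sensor of Z-form nucleic acid, with 500 UMIs in all cells, OASL with 701 and XAF1 with 755.

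Antiviral effectors are the proteins that act on viral RNA, entry or release, and 17 of them were in the files. MX1, a GTPase that traps viral nucleocapsids, was at 0.418, 0.951, 0.745, 3.96, 8.36 and 1.64 UMIs per 10000 in T cells from day 0 to day 21. In B cells it was at 0.479, 1.43, 0.88, 1.79, 1.21 and 0.8. T cells were thus below B cells up to day 3 and above them from day 7 on. MX2, its neighbour on chromosome 13, reached 1.24 in T cells on day 14 and 0.146 in B cells. RSAD2 (viperin), which makes a chain-terminating nucleotide, was at 3.01 in T, 3.11 in myeloid and 7.29 in epithelial cells on day 14, against 0.171 in B cells. The highest T cell value of RSAD2 at any other age was 0.559, on day 7. CMPK2, a mitochondrial nucleotide kinase whose gene lies next to RSAD2 on chromosome 3, was at 0.722 in T cells on day 14 and 0.117 in B cells.

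The IFIT proteins bind viral RNA with foreign 5' ends. IFIT1 in T cells was at 1.37, 1.36, 0.272, 1.09, 3.21 and 0.928 over the ages. It was the effector with the highest level in T cells of newborns, where B cells had 0.154 and epithelial cells 0.0381. IFIT2 was highest in myeloid cells, at 0.436 on day 1 and 5.47 on day 14, while T cells had 0.342, epithelial cells 0.905 and B cells 0.0208 on day 14. IFIT3 reached 1.97 in T, 3.97 in myeloid and 2.37 in epithelial cells on day 14 and 0.06 in B cells.

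The OAS enzymes make the second messenger that activates RNase L. OAS1 was nearly absent from lymphocytes, with 0.0893 in T cells and 0.00771 in B cells on day 14, against 1.81 in epithelial and 1.7 in myeloid cells. Its neighbour OAS2 was at 5.48 in epithelial, 5.18 in myeloid, 0.856 in T and 0.292 in B cells on the same day. OASL had 0 UMIs in B, T and myeloid cells on day 0 and 0.834 in myeloid and 1.98 in epithelial cells on day 14. ISG20, an exonuclease that degrades single-stranded RNA, was at 4.34 in T, 8.23 in myeloid and 5.03 in epithelial cells on day 14 and at 0.0632 in B cells. B cells never exceeded 0.126 for ISG20, on day 7, which made it the member with the widest gap between T and B cells on day 14, 68.7 times.

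Among the other effectors, EIF2AK2 (PKR), the kinase that stops translation, was at 3.35 in T, 3.74 in myeloid, 4.92 in epithelial and 0.679 in B cells on day 14. PLSCR1, a scramblase that restricts viral entry, was at 4.18 in epithelial cells and 0.588 in T cells, and DDX60, a helicase, at 2.15 and 1.38. ADAR, which edits double-stranded RNA, went from 0.136 on day 0 to 0.394 on day 14 in T cells and from 0.117 to 0.168 in B cells. BST2 (tetherin), which holds budding virus on the cell, was at 0.26 in T and 0.259 in myeloid cells on day 14 and had no UMI in the 27 epithelial cells, where 3 UMIs would give 0.17. ZBP1 was at 0.0521 in T cells on day 14 from few UMIs.

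In the ISG15 system, ISG15 itself was at 34.3 UMIs per 10000 in T, 112 in myeloid and 56.9 in epithelial cells on day 14, against 2.81 in B cells. Earlier peaks of ISG15 were seen on day 1, with 20.8 in myeloid, 7.26 in T and 5.91 in B cells. HERC5, the ligase that joins ISG15 to proteins, was at 1.94 in T and 3.51 in myeloid cells on day 14, and USP18, which removes ISG15 and dampens receptor signalling, at 0.819 and 1.78. B cells had 0.384 and 0.183 for the pair. TRIM25, a ligase that acts on the sensor RIG-I, ranged only from 0.564 to 1.13 in T cells and from 0.424 to 0.667 in B cells.

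The cytosolic RNA sensors DDX58 (RIG-I), IFIH1 (MDA5) and DHX58 (LGP2) were at 1.7, 2.03 and 0.811 in T cells on day 14 and at 0.399, 0.715 and 0.37 on day 7. B cells held them at 0.117, 0.323 and 0.0741 on day 14. Of the transcription factors, IRF7 was at 1 in T, 5.58 in myeloid, 3.22 in epithelial and 0.503 in B cells on day 14. IRF9 differed less, with 0.64 in T and 0.198 in B cells. STAT2 was the member that was not higher in T than in B cells on day 14, with 0.923 and 0.941, and B cells were the higher of the pair at every age.

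The PARP family members and their partner DTX3L, which modify proteins with ADP-ribose and ubiquitin, were led by PARP14, at 0.447, 1.2, 1.54, 1.73, 4.18 and 2.54 in T cells over the 6 ages and 0.245, 0.524, 0.506, 0.485, 0.272 and 0.234 in B cells. PARP9, PARP12 and DTX3L were at 0.707, 0.99 and 0.811 in T cells on day 14 and at 0.0855, 0.108 and 0.0858 in B cells. DTX3L and PARP9 overlap on the genome, and how reads of the shared stretch were counted was not examined. Of the remaining members, IFI6 was at 46.4 in T, 67.2 in myeloid, 74.3 in epithelial and 2.65 in B cells on day 14, and EPSTI1 at 5.52, 7.8, 2.54 and 0.558. IFI44L was at 2.25 in T and 0.411 in B cells, IFI44 at 0.223 and 0.0196, XAF1 at 0.134 and 0.0108, and TRIM21, an antibody receptor in the cytosol, at 0.253 and 0.0533. TRIM21 was the only member with its T cell maximum on another day than day 14 (0.348 on day 21).

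**Figure D2:**
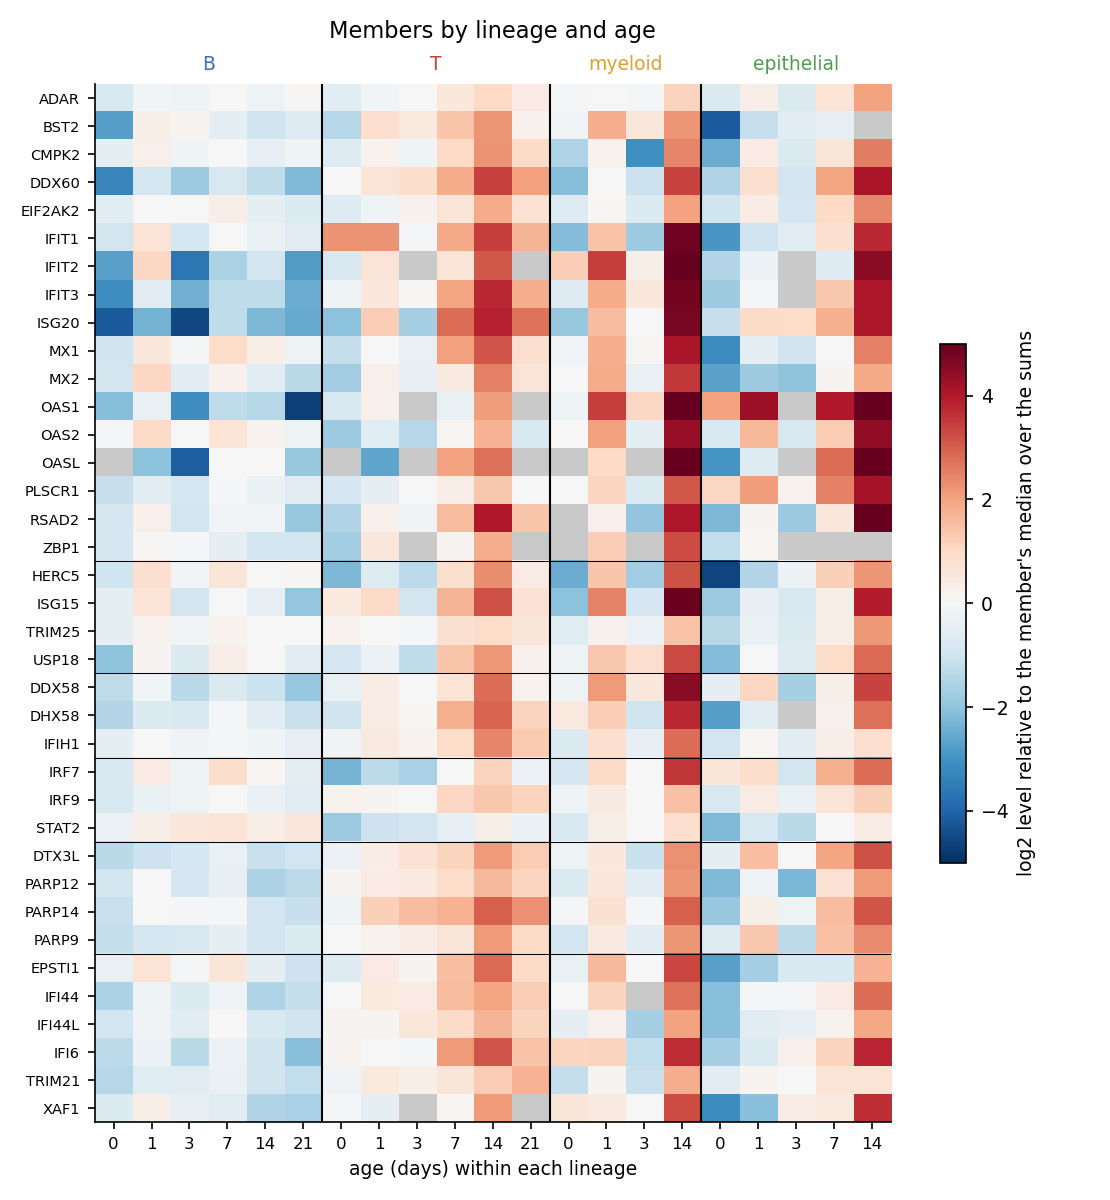
Level of each of the 37 members (rows, grouped by role, separated by lines) in the 21 sums of at least 20 cells (columns, by lineage and age in days), as log2 relative to the member's median over the sums. Grey marks the 27 values under 3 UMIs. The day 14 columns of T, myeloid and epithelial cells lie above the median for nearly every member.

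Counted over members, 36 of 37 were highest on day 14 in T cells, 37 of 37 in myeloid cells (over 4 libraries) and 35 of 37 in epithelial cells (over 5 libraries). Of all genes with at least 100 UMIs in a lineage, 19.9% were highest on day 14 in T cells, 31.8% in myeloid cells and 20.1% in epithelial cells. In B cells 20 members were highest on day 1 and 16 on day 7, where 11% and 14.9% of all genes were, and no member was highest on day 14. On day 14, 36 of 37 members were higher in T than in B cells of the same library, with a median ratio of 8.5, where 48.8% of 12198 genes were higher and the median ratio was 1.15. All 37 were higher in myeloid than in B cells, with a median ratio of 14, where 34.5% of genes were higher with a median of 1.26. In epithelial cells 35 of 37 were higher than in B cells, with a median ratio of 13.1. Of 12315 genes 30.5% were higher, with a median of 1.72. From day 7 to day 14, 34 of the 34 members with enough UMIs had a higher value in T cells, where 50.7% of genes did, with median ratios of 2.19 over these members and 1.01 over all genes. OAS1, XAF1 and ZBP1 had too few UMIs in T cells to be counted. In B cells 3 of 37 did, where 52.6% of genes did, with medians of 0.732 and 1.02. Members and genes counted in these ratios had at least 20 UMIs in either sum. For the median ratios, counts below 3 were set to 3, while a gene was called higher by its counts as they were. The day 14 sums held 347559 UMIs in myeloid and 176884 in epithelial cells, against 84311789 in B cells. Genes without a UMI in the small sums count as not higher, which lowers the shares of all genes, while the floor raises their ratios. Shares and medians are thus not on the same footing. The gap from day 14 to the next library, over the whole range, passed Dixon's 95% criterion for 16 of 33 members in T cells, 15 of 32 in myeloid, 21 of 33 in epithelial and 0 of 37 in B cells, among those with at least 100 UMIs in the lineage. Of all genes with as many UMIs it did so for 0.885%, 2.86%, 3.25% and 0.138%. The criterion was applied to levels and not to their logs, on which this gap is a smaller part of the range.

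Neighbouring ages were compared in the lineages with at least 200 cells in every library, B and T cells, by counting members that differed by 2-fold or more among those with at least 20 UMIs at either age. On day 1, 20 of 36 members were higher than on day 0 in B cells, against 3.22% of 11040 genes. No member was lower, against 2.59%. The 20 included 11 of 16 effectors and 3 of 4 genes of the ISG15 system, among them IFIT2 at 13.6 times (0.00595 to 0.0812 UMIs per 10000), BST2 at 8.43 times and IFIT3 at 5.92 times. In T cells 12 of 33 were higher on day 1, against 3.6% of 10312 genes, and none was lower, against 6.58%. ISG20 led there, with 9.72 times. The median log2 fold over the members was 1.05 in B and 0.70 in T cells, that of all genes 0.02 and -0.11.

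On day 3, in B cells 10 of 36 members were lower than on day 1 (7.98% of 12570 genes) and none was higher (11.7%). Relative to the median gene 16 were lower. In T cells 4 of 33 were lower (8.51% of 9862 genes), namely IFIT1, IFIT2, ISG15 and ISG20, and none was higher (13.8%). The T cell count lay near the background, and other members had higher values on day 3 than on day 1, among them PLSCR1 at 1.39 times and IFI44L at 1.34 times. The members' median log2 fold was -0.29 in T cells, that of all genes 0.31.

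Markers of other cell types moved with these steps. Myeloid markers (11 of 11) summed to 0.611 UMIs per 10000 in B cells on day 0, 2.17 on day 1 and 0.426 on day 3, and S100A9 was at 0.00119, 0.749 and 0.0143. Granulocyte markers (2 of 2) summed to 0.0429, 0.13 and 0.0179, and erythroid markers (3 of 3) to 0.0488, 0.958 and 0.0531. In T cells the myeloid sum was 4.68, 3.47 and 2.5, while S100A9 was at 0.0045, 0.771 and 0.00504. The part of these in the member levels was not tested.

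On day 7, 17 of 33 members were higher than on day 3 in T cells (7.21% of 8087 genes) and none was lower (4.18%). ISG20 was at 22 times its day 3 level and ISG15 at 6.14 times. In B cells 10 of 37 were higher (5.1% of 12753 genes), or 6 relative to the median gene. None was lower (8.13%), and OASL was at 17.7 times from very low counts on day 3. Marker sums moved with this step too. In B cells erythroid markers went from 0.0531 to 3.21 UMIs per 10000, plasma cell markers from 5.77 to 9.83 and stromal markers from 0.475 to 0.012. In T cells erythroid markers went from 0.0504 to 8.83. The part of these in the member levels was not tested.

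From day 7 to day 14 the lineages parted. In T cells 23 of 34 members were higher on day 14 (3.09% of 7831 genes) and none was lower (2.8%). They were 12 of 15 effectors, all 3 RNA sensors, 3 of 4 PARP family members, ISG15 and HERC5, IRF7, and IFI6 and EPSTI1. IFIT2 was at 5.55 times and RSAD2 at 5.38 times the day 7 level. In B cells none of 37 was higher (4.59% of 12646 genes) and EPSTI1, IFI44 and PARP12 were lower, which is near the background of 9.62%. From day 14 to day 21, 24 of 34 members were lower in T cells (5.94% of 6495 genes) and none was higher (2%). In B cells 7 of 37 were lower (3.55% of 12343 genes), RSAD2, IFIT2, IFIT3, ISG15, OAS1, OASL and IFI6, and none was higher (3%). Erythroid markers also moved: on days 7, 14 and 21 they summed to 3.21, 0.0922 and 12.1 UMIs per 10000 in B cells and to 8.83, 0.0819 and 2.1 in T cells. Their part in the member levels was not tested. No value can be set on the spread between piglets behind these steps.

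**Figure D3:**
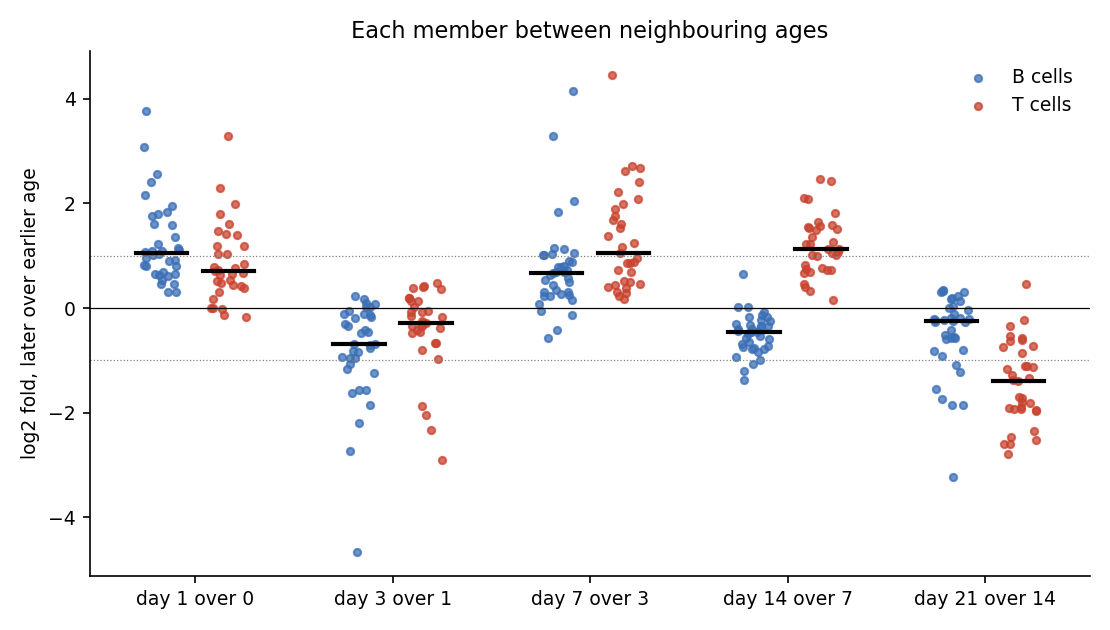
Fold of each measured member between neighbouring ages on a log2 scale (points, 33 to 37 a group), in B cells and T cells, with the median as a black bar and dotted lines at 2-fold. Between day 7 and day 14 the T cell points lie above 0 and nearly all B cell points below it.

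Other values of the T cell sums were compared beside the day 14 result. The median T cell held 2906 UMIs on day 14, of which 4.22% were mitochondrial, against 4144 and 5.11% on day 7. Myeloid markers summed to 3.06 UMIs per 10000 in T cells on day 14 and to 1.11 to 4.68 over all ages, epithelial markers to 0.29 (0.215 to 1.11), and NK markers to 9.32 (3.98 to 14). None of these 3 sums had its highest T cell value on day 14. FCER1G, which NK cells also express, made up 2 of the myeloid sum of 3.06. Monocyte genes within that list were higher in T cells on day 14 than on day 7: S100A9 was at 0.409 and 0.00822, S100A12 at 0.231 and 0.00822, FCN1 at 0.0744 and 0.00822 and CD14 at 0.0595 and 0.00411. On day 1 S100A9 was at 0.771 in T cells, where the member level was 25.04. In myeloid cells S100A9 was at 45.4 on day 1 and 20.7 on day 14, while their member level was 54.39 and 286.2. Plasma cell markers had their highest T cell sum on day 14, with 1.88 against 0.584 to 1.52 at the other ages, and B markers were at 2.08, below the 2.5 of day 21. In myeloid cells granulocyte markers were at 1.84 on day 14 and at 0.322 to 1.08 on days 0, 1 and 3. Erythroid genes (HBB, HBM and ALAS2) summed to 0.0819 in T cells on day 14, but to 8.83 on day 7. The part of any of these in the member levels was not tested.

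Within a lineage the members were spread unevenly over cells. Each cell was thinned to 1000 UMIs and its members with a UMI were counted. In T cells the share of cells with 3 or more members was 15.1%, 22%, 19.3%, 44.8%, 68.9% and 44.9% over the ages. In B cells it was 7.91%, 24.9%, 15.3%, 21.9%, 11% and 6.25%. The exact binomial 95% interval on day 14 was 63.9% to 73.6% in 370 T cells and 10.5% to 11.5% in 14637 B cells. On day 14 it was 70.3% of 74 myeloid and 100% of 27 epithelial cells. No cell type of the mucosa can be said to lack these genes, so no share stands for the background of free RNA, and the B cell shares are no sign of expression in each cell.

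Cells with 10 or more members made up 21.1% of T, 36.5% of myeloid and 37% of epithelial cells on day 14, and at most 3.31% of T, 2.34% of myeloid and 1.15% of epithelial cells in the other libraries with at least 20 cells. Among B cells they were 0.0457%, 0.384%, 0.374%, 1.13%, 1.28% and 0.2% over the ages. They were 116 of 10251 B cells on day 7 and 187 of 14637 on day 14. With each cell thinned to 2000 UMIs, which leaves out the shallower cells, the shares were 4.26% of 9196 cells on day 7 and 2.94% of 13630 on day 14. No order is read between these ages, which have 1 library each. On day 14 the 5% of B cells with the most member UMIs held 50.4% of them, against 25.7% on day 0 and 38.3% on day 7, and the median B cell had 5.11 member UMIs per 10000. The median T cell of the same library had 85.1, the median epithelial cell 187, and no epithelial cell was without a member UMI. Of the T cells, 0.541% had none on day 14, of the B cells 12.2%.

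**Figure D4:**
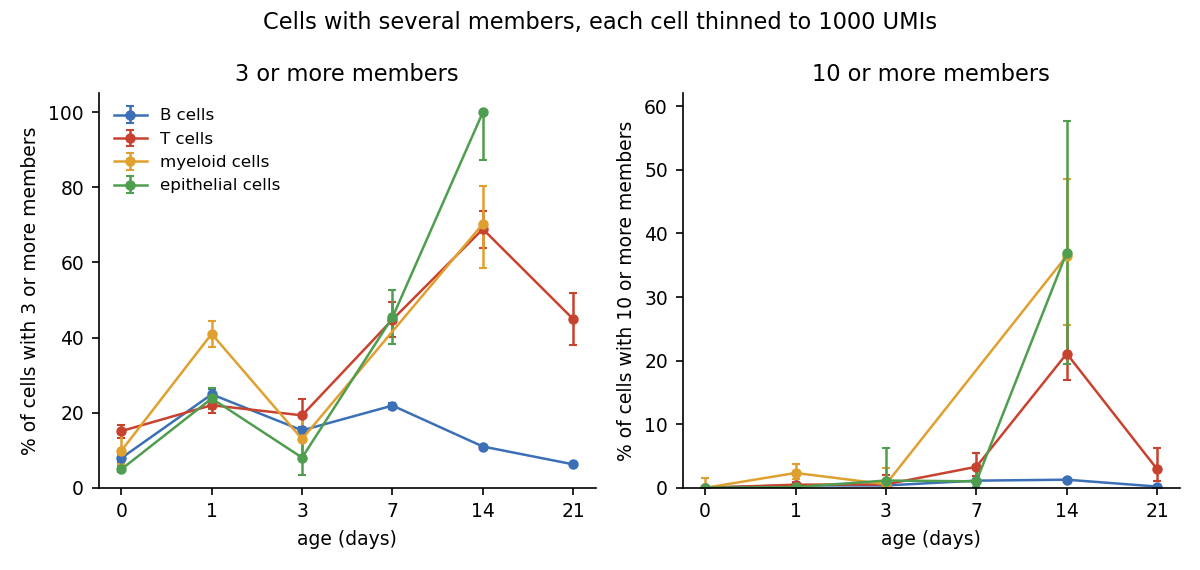
Share of cells with 3 or more (left) and 10 or more (right) members after thinning to 1000 UMIs, by age in days and lineage, with exact binomial 95% intervals, for sums of at least 20 cells. T cells rise to 68.9% and 21.1% on day 14, where B cells are at 11% and 1.28%.

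The members tended to occur in the same cells. Among B cells, a member was found more often in cells with 3 or more other members than in cells with none, by a median of 7.47 times over the 37 members. The ratio was 51.9 for OASL, 37.2 for DDX60, 34.3 for RSAD2 and 25.7 for IFIT2, and 1.71 for STAT2, 2.05 for IRF9 and 2.48 for TRIM25. The highest ratios rest on few cells. Among B cells without other members, OASL was found in 4 of 23082, DDX60 in 16 of 23094, RSAD2 in 53 of 23131 and IFIT2 in 6 of 23084. In T cells the median was 4.51. These ratios describe cells of pooled libraries, were not tested and were not computed for genes outside the list. Cells with more members also came more from some ages than others.

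Lineages were compared across ages with edgeR's quasi-likelihood test on UMI sums per library and lineage, with the library as a block, each lineage against the mean of the other 3. The 6 libraries are the replicates of this test, 21 sums in all. An adjusted p (Benjamini-Hochberg over 12793 genes) under 0.05 was called. In myeloid cells 13 of 37 members were higher (18% of all genes) and none was lower (14.8% of all genes; 0 members at an unadjusted p under 0.05, and 0 by DESeq2). In B cells 14 were lower (21.8%) and 1 was higher (34.6%). In T cells 9 were higher (18.5%) and 4 lower (17.8%), and in epithelial cells 5 were higher (27.6%) and 7 lower (34.2%). The median log2 fold of the members was 0.81 in myeloid, 0.50 in T, -0.65 in B and -0.39 in epithelial cells, beside -0.15, -0.01, 0.19 and -0.17 for all genes. Only the myeloid count upward and the B cell count downward exceeded the share of all genes by 1.5 times or more, at 1.95 and 1.73 times. With cells counted in each gate they meet these were 1.24 and 1.4 times, the B cell value was 1.36 with DESeq2, and the myeloid value was 1.3 without the library of day 1. With DESeq2 size factors in place of TMM, the median of all genes in B cells moved from 0.19 to -0.08, the T cell split from 9 higher and 4 lower to 2 and 4, and the epithelial split from 5 and 7 to 6 and 5. The median of all genes in epithelial cells moved from -0.17 to 0.06.

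By fold, ISG20 was the member furthest below the other lineages in B cells, with a mean of 0.0551 UMIs per 10000 against 1.80 (log2 fold -4.03, SE 0.51, adjusted p = 9.82e-06, edgeR). It was lower in 6 of 6 libraries. OAS1 (log2 fold -3.43), IFIT3 (-2.52), OASL (-2.49), DDX60 (-2.18) and IFIT2 (-1.87) followed, then IFI6, DTX3L, DDX58, PLSCR1, PARP14, PARP9, TRIM21 and IRF9, from -1.56 to -0.50. By role, 7 of the 14 are effectors, 3 belong to the PARP family and 1, DDX58, is an RNA sensor. The 37 members hold 17 effectors, 4 PARP family members and 3 RNA sensors, so the share of effectors was near that of the list. The member higher in B cells was STAT2, with a mean of 0.970 against 0.629 (log2 fold 1.09, SE 0.17, adjusted p = 8.67e-05), in 5 of 6 libraries. ISG15 and MX1, with 18.3% and 8.16% of the B cell member UMIs, did not pass (adjusted p = 0.316 and 0.898).

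IFIT2 had the largest fold in myeloid cells, at a mean of 1.51 against 0.101 (log2 fold 3.40, SE 0.59, adjusted p = 0.000303), higher in 4 of 4 libraries. OAS1, OASL, BST2, ISG20, IFIT3, MX2, DDX58, DHX58, USP18, MX1, IRF7 and STAT2 were the others, from 2.48 to 0.61. In epithelial cells OAS1 was highest above the other lineages (log2 fold 2.89, SE 0.43, adjusted p = 2.24e-05, 5 of 5 libraries), with OASL, PLSCR1, ISG20 and DTX3L also higher. BST2 (-2.42), EPSTI1 (-1.88), MX2 (-1.78), MX1 (-1.54), DHX58 (-1.31), STAT2 (-1.02) and IFIH1 (-0.82) were lower there. In T cells IFIT1 (1.76), DDX60 (1.54), IFIT3, PARP14, ISG20, BST2, IFI44L, TRIM21 and IRF9 were called higher, while OAS1 (-1.95), IRF7 (-1.59), OAS2 (-1.57) and STAT2 (-0.68) were lower. The fitted direction in T cells went against the plain means for IFIT3, at 0.589 in T cells and 0.612 in the other lineages (higher in 4 of 6 libraries), and ISG20 was higher in 3 of 6. The T cell calls upward were the least stable: without the library of day 0, 1, 3, 7 or 21 they numbered 1, 2, 3, 1 and 2, and without that of day 14 they numbered 11. Without day 1 the T cell calls downward fell to 1 and the myeloid calls upward to 6, and without day 0 or day 1 the epithelial calls downward were 4. Without day 14, 14 of the 14 members lower in B cells, 12 of the 13 higher in myeloid cells, 7 of the 9 higher and 4 of the 4 lower in T cells, and 4 of the 5 higher and 6 of the 7 lower in epithelial cells were still called. The calls lost were IRF7 in myeloid cells, BST2 and IRF9 in T cells, and IFIH1 and OASL in epithelial cells, where the log2 fold of OASL went from 1.87 to 0.97 (adjusted p = 0.154).

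**Figure D5:**
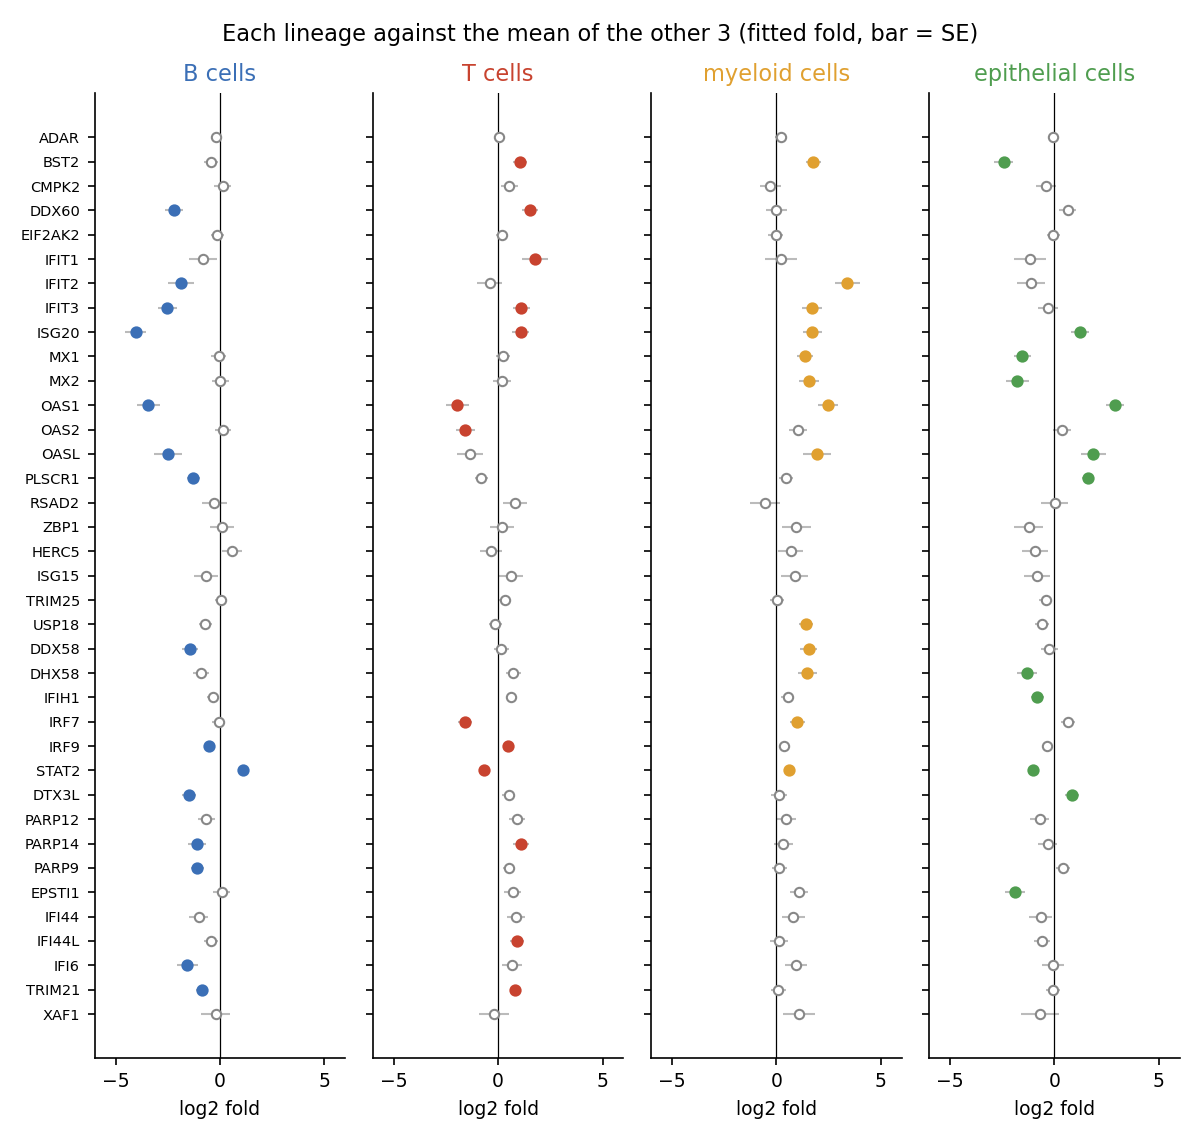
Fitted log2 fold of each member in a lineage against the mean of the other 3 lineages (edgeR, library as a block; bars are 1 SE). Filled points passed an adjusted p of 0.05: 14 lower and 1 higher in B cells, 9 higher and 4 lower in T cells, 13 higher in myeloid cells, 5 higher and 7 lower in epithelial cells.

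Other genes of the interferon pathway were taken from a second list, of which 69 genes were in the files and 63 were tested. Of the ligands, IFNB1 (interferon beta) was found on day 1 alone. It had 27 UMIs in 6 of 769 myeloid cells and 1 UMI in a cell without a gate. The 74 myeloid cells of day 14 had none, but a gene found in so small a share of cells on day 1 can be missed in so few. IFNG was a T cell gene (log2 fold 7.95, adjusted p = 3.12e-08, edgeR), with 223 UMIs in T cells. It was seen in 41 of 1622 T cells on day 1, where 1 cell held 63 of the 143 UMIs, and in 8 of 370 on day 14. IFNE, the epithelial type I interferon, was found in 225 of 2601 epithelial cells on day 0, 113 of 920 on day 1 and 3 of 27 on day 14 (log2 fold 7.06, adjusted p = 2.82e-05). IFNK had 1 UMI in myeloid cells and 1 in cells without a gate. IFNA, IFNW, IFNL1 and IFNL3 were not matched by name.

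Of the 6 receptor genes, IFNLR1, the chain specific to type III interferon, was higher in epithelial cells (mean 0.174 against 0.00586 UMIs per 10000, log2 fold 4.49, adjusted p = 1.37e-07), as was its partner IL10RB (log2 fold 1.53). IFNAR1 was higher in T cells (0.58) and lower in B (-0.57) and epithelial cells (-0.49), and IFNAR2 was higher in myeloid (1.39) and lower in epithelial cells (-2.06). IFNGR2 was higher in myeloid (1.67) and lower in T cells (-1.86). In B cells, IFNAR2 was at 0.33 on day 3, 0.107 on day 14 and 0.116 on day 21, while T cells had 0.388, 0.432 and 0.613. Its values at the other ages are not given, and its part in the member levels was not tested.

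IRF1, which interferon gamma induces among other signals, had its highest level in UMIs per 10000 on day 1 in B (2.11), T (3.4) and epithelial cells (1.55). Of the ages with at least 20 cells, it was also highest on day 1 in myeloid cells (2.19). T cells were at 1.48 on day 14. Which interferon lay behind these levels was not tested. Of 9 signalling genes, 5 were higher in myeloid cells (18% of all genes) and 6 lower in epithelial cells (34.2%). Of 11 sensors and adaptors, 4 were higher and 2 lower in B cells, near the shares of all genes (34.6% and 21.8%), and 7 were lower in epithelial cells (34.2%). TLR9, a sensor of microbial DNA, had a log2 fold of 5.11 in B and 4.98 in myeloid cells. For TLR8 and TLR7, called higher in B cells, the plain means ran the other way, at 0.034 in B cells against 0.153 in the other lineages and at 0.0272 against 0.0444, and each was higher in 2 of 6 libraries. In myeloid cells 6 were higher (18% of all genes), TLR8, TLR9, TMEM173, TLR7, TLR3 and MYD88.

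Among 29 further induced genes tested, 14 were higher and 1 lower in myeloid cells, where 18% and 14.8% of all genes were. In T cells 10 were higher and 5 lower, where 18.5% and 17.8% of all genes were, so that the count downward was near the background. In B cells 3 were higher and 11 lower (34.6% and 21.8% of all genes), and in epithelial cells 3 and 15 (27.6% and 34.2%). CXCL10, a chemokine that draws T cells, was at 21.4 in myeloid cells on day 1 and 57.9 on day 14, and at 4.36 in T and 0.367 in B cells on day 14. CXCL9, which answers mainly to interferon gamma, was at 4.57 in myeloid cells on day 1 and 3.19 on day 14. IFITM1, which blocks entry of virus, was at 145 in epithelial, 59 in myeloid, 33.4 in T and 2.99 in B cells on day 14, and IFITM3 at 24.3, 32.4, 7.93 and 0.702. The IFITM genes are close copies, and how reads that match more than a single copy were counted was not examined. GBP1, a GTPase against intracellular pathogens, was at 6.18 in T cells on day 14 and 8.42 on day 21, and so did not fall with the members. Of the negative regulators, SOCS3 was higher in myeloid (3.51) and T cells (1.46) and lower in B (-2.44) and epithelial cells (-2.54). The plain means ran against the fitted direction for SOCS3 in T cells (0.566 against 0.701), and also for NT5C3A, called higher in B cells (0.888 against 0.959), and CXCL11, called higher in epithelial cells (0.0132 against 0.169).

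Several members lie side by side on the pig genome (Sscrofa11.1). MX2 (chromosome 13, 204798633 to 204821612) and MX1 (204843049 to 204868927) are 21437 bases apart. IFIT2 (chromosome 14, 101193421 to 101204292), IFIT3 (101214730 to 101225169) and IFIT1 (101237403 to 101249486) form a row, as do OAS2 (38827667 to 38847697) and OAS1 (38851083 to 38867427) on the same chromosome. The calls of neighbours were not all alike: IFIT2 was called higher in myeloid cells, IFIT1 in T cells and IFIT3 in both, and in epithelial cells OAS1 was called higher with a log2 fold of 2.89 while OAS2 had 0.37 and did not pass. Differences between neighbours were not tested.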

How the data were processed

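The members, gates and pathway lists were chosen with earlier results of these data known, and no list is independent evidence. Per the labels and the methods of the study, the authors made 10x Chromium 3' libraries (kit version V3 in the labels, another version in the methods) and counted UMIs with Cell Ranger 3.1.0, which aligns with STAR, on susScr11. The authors deposited whole-number UMI counts for all barcodes, without filter or normalization, 77391932 to 100348769 UMIs a library. The cell types of the study were not used.

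Here, levels are UMIs per 10000 UMIs of a sum of cells, with exact Poisson intervals. Shares have exact Clopper-Pearson intervals. Both cover counting error at 95% only. Cells were thinned without replacement; none fell below 1000 UMIs. No doublet caller was run, and cells that met several gates were left out. Folds between ages and the median ratios of day 14 used 3 UMIs as a floor.

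Sums with at least 20 cells were fitted in edgeR 4.0.16 (R 4.3.3; filterByExpr, TMM, glmQLFit, library plus lineage). SE is the log2 fold divided by the root of F. The block takes out what the lineages of a library share, so p-values rest on how lineage differences vary between these libraries. That variation includes age, and with libraries taken as pools it holds no separate spread between piglets. Counts were also simulated for T cells against the other lineages over 12490 genes. Of 100 genes changed 2-fold 33% were recovered, of 100 changed 4-fold 99%, and 0.0325% of unchanged genes were called. The simulation had a fixed dispersion and the same mean profile in every lineage and library, without age courses. The changed genes were not among the least expressed. These shares may therefore not hold for the real fit. Every member is accounted for. The rule named members called between lineages, past 2-fold between ages, among the 10 with the most UMIs, or near 0, and pathway genes called or with at least 20 UMIs. Further members, IFNK and single markers were named after their values were seen. Alternatives used DESeq2 1.42.0, other filters, gates, scalings and depths, and each library left out. Positions came from RefSeq. Python 3.11.15, numpy 2.4.6, scipy 1.17.1 and pandas 2.3.3 were used. No sequence was read. One pathway gene is not reported here.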

Additional observations from a re-analysis of the deposited data

Results flagged for a closer look

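The level of the members on day 14 lay far from that of the other libraries in 3 lineages, by Dixon's criterion for the gap to the nearest library over the whole range. It was 137.1 UMIs per 10000 in T cells (gap 0.65 of the range, 6 libraries), 286.2 in myeloid cells (0.847, 4 libraries) and 208.3 in epithelial cells (0.861, 5 libraries). In B cells the gap was 0.135. Member by member, the day 14 library stood apart for 18 of 37 members in T cells, 17 in myeloid cells and 23 in epithelial cells. Among genes with at least 100 UMIs in a lineage, 0.885% did in T cells, 2.86% in myeloid cells and 3.25% in epithelial cells, and 16 of 33, 15 of 32 and 21 of 33 members. In B cells 1 member stood apart, on day 1. Chance alone marks about 1 in 20 groups, the members share cells, and the libraries of a lineage are of different ages.

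From day 7 to day 14 the level moved to 0.678 times in B cells, and to 2.31 times in T cells and 5.95 times in epithelial cells. The directions are opposite, but the difference between lineages was not tested, with 1 library an age.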

How the results depend on the processing

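Of 189 alternative values for 29 results, 134 kept the direction and stayed within 1.5 times (counts), the interval (ratios) or the spread between libraries (medians). Another 52 moved without changing direction, and 3 reversed. The cause was not tested. The limit for medians was wide: the spread was 45.6 beside a median of 33.2 in T, 130 beside 36.8 in myeloid and 85.4 beside 18.3 in epithelial cells. Counts of 0 that stayed 0 were also kept, and shares of cells rise with depth. The tally is therefore no measure of robustness. The level on day 21 over day 0 in all cells, 0.946, reversed to 1.17 without IFI6 and 1.39 without IFI6 and ISG15 (a setting chosen after seeing the data), and was 0.93 at 2000 UMIs and 0.778 as a mean over cells. In B cells, 0.865 reversed to 1.21 without both, and was 0.936 without IFI6, 0.936 with cells counted in each gate, 0.844 at 2000 UMIs, 0.839 as a mean over cells and 0.602 with TMM scaling. In T cells, 2.2 became 2.08, 2.66, 2.4, 1.68, 2.78 and 1.29, in the order IFI6 out, both out, each gate, 2000 UMIs, mean over cells and TMM. T over B cells on day 14, 9.91, became 6.15 with cells in each gate, 8.11 without IFI6, 6.73 without both and 7.6 with TMM. Day 14 over day 7 in T cells, 2.31, became 1.68, 2.51, 2.02, 2.2 and 2.49 with each gate, IFI6 out, TMM, 2000 UMIs and mean over cells, and in B cells, 0.678, became 0.712, 0.694, 0.662, 0.654 and 0.703.

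Members called higher in T cells numbered 9, and 2 with DESeq2 size factors, 4 without the filter on low counts and 5 with cells in each gate; leaving out 1 library gave 1 to 11, and 1 to 5 for the 4 lower. Myeloid calls upward were 13, and 6 with cells in each gate (6 to 14 with 1 library out). Epithelial calls upward were 5, and 3 with at least 50 cells, and the 7 downward became 4 with cells in each gate (4 to 10 with 1 library out). At 1.5-fold, the members past the fold were 31 in place of 20 in B cells on day 1, 19 in place of 10 on day 3, 20 in place of 10 on day 7, and 20 in place of 12 in T cells on day 1. Relative to the median gene, B cells had 16 on day 3 and 6 on day 7. At 2000 UMIs the shares of cells with 3 or more members were 39.2% and 18.7% in B cells on days 7 and 14 and 72.5% and 83.1% in T cells. No paired analysis of ages was possible because each age has 1 library. The test between lineages was paired within libraries, with the library as a block. Myeloid cells on days 7 and 21 and epithelial cells on day 21 were too few for the test.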

Other observations

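Cells that met none of the gates, 13264 in all, had member levels of 16.82, 28.67, 26.04, 37.1, 116.5 and 18.04 UMIs per 10000 from day 0 to day 21, so that they too were highest on day 14. Their plasma cell markers summed to 19.9 UMIs per 10000 on day 14 and to 2.49 on day 0, and their stromal markers to 0.343 and 12.4. The cells that met several gates were at 8.721, 22.71, 14.28, 42.99, 71.73 and 34.88. Among cells without a gate, 14.4% of 662 had 10 or more members on day 14 after thinning to 1000 UMIs, and 1.98% or less did on the other days.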
